A study of Mus musculus with 6 samples.

Results

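Of 263979 distinct TCR-β clonotypes of splenic CD4+ T cells from 3 mice with fibrosis-memory, 5885 were public, that is, present in all 3 spleens, and 235990 were private, that is, present in exactly 1. A clonotype was a coding CDR3 amino acid sequence together with its V gene and its J gene. The classes were defined by the measured presence of at least 1 UMI (unique molecular identifier, a random tag that counts each mRNA molecule once) in a spleen. The public clonotypes were therefore 2.23% and the private clonotypes 89.4% of all, and the remaining 22104 clonotypes were present in 2 spleens.

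All 3 mice were C57BL/6 wildtype animals. In each, the ureter of the right kidney was obstructed reversibly between day 0 and day 6 (RUUO, reversible unilateral ureteral obstruction), and that of the left kidney was obstructed on day 17 (UUO). CD4+ T cells of the spleen and the left UUO kidney were taken on day 22. Each organ of each mouse gave 1 library, so that 6 libraries were analysed. None of the 6 came from a mouse without injury, and the CD4+ label could not be checked, since the files hold TCR-β clones alone. The paper describes the CD4+ T cells used for TCR sequencing as sorted by FACS. It describes CD4 microbeads, preceded by negative isolation for kidney cells, for the donor mice of its cell transfers.

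The β chain of the T cell receptor is assembled in the thymus by joining a V, a D and a J segment. Segment ends are trimmed, and the enzyme terminal deoxynucleotidyl transferase adds nucleotides without a template, so the joint, the CDR3, is the most variable part of the chain and the part that contacts the peptide. Receptors with few added nucleotides are assembled again and again in different animals, and different joints can encode the same amino acids, which is the usual account of why some receptors are shared. Private receptors are those that were assembled, or sampled, in 1 animal.

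The spleens of mice 1, 2 and 3 held 160179, 224811 and 97735 coding UMIs and 99882, 125528 and 72443 clonotypes. The UUO kidneys held 773, 1248 and 693 coding UMIs and 481, 752 and 472 clonotypes. Private clonotypes numbered 78701, 102463 and 54826 in the 3 spleens. Since the public set is common to the 3 spleens, it made up 5.89%, 4.69% and 8.12% of their clonotypes, the highest share in the smallest library. A UMI stands for an mRNA molecule, so more cells of a clone and more mRNA per cell cannot be told apart.

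At the threshold, 571 public clonotypes (9.70%) had a single UMI in each spleen and 4175 (70.9%) had a single UMI in at least 1 spleen. Just outside it, 4409 of the clonotypes in 2 spleens had at least 2 UMIs in both. Spleens 1 and 2, the deeper libraries, shared 16257 clonotypes, spleens 2 and 3 shared 12693, and spleens 1 and 3 shared 10809. The number of public clonotypes also depended on depth, and drawing every spleen to 97735 UMIs left 3540.

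A public clonotype with 18 nucleotide sequences, the highest number and shared with 1 other clonotype of fewer UMIs, is shown first, because its sequences make visible how the same amino acids were encoded repeatedly. It was a 14-residue receptor of Trbv1 and Trbj2-7 with 31, 48 and 14 UMIs in spleens 1, 2 and 3 and none in a kidney. Of its sequences over the 3 spleens, the 8 with the most UMIs are given 5′ to 3′ over the whole CDR3, with the 2 positions at which they differ from each other in capitals.
Trbv1 variant 1: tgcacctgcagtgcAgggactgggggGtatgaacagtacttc
Trbv1 variant 2: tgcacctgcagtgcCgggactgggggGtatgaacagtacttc
Trbv1 variant 3: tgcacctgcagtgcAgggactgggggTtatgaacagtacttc
Trbv1 variant 4: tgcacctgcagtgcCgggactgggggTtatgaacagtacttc
Trbv1 variant 5: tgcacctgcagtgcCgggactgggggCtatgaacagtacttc
Trbv1 variant 6: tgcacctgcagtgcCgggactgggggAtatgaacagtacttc
Trbv1 variant 7: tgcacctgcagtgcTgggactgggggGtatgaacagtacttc
Trbv1 variant 8: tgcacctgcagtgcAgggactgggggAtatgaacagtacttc
Variant 1 had 11, 5 and 3 UMIs in spleens 1, 2 and 3, and variant 2 had 3, 6 and 1. Variants 1, 2 and 3 were present in all 3 spleens, while variant 8 was seen in spleen 2 alone, with 4 UMIs. Both capitals are the last base of a codon and leave the amino acid unchanged. By the authors' alignment, variants 1, 2 and 5 contained no nucleotide outside the V, D and J segments, and each of the other 5 contained 1.

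The largest public clonotype was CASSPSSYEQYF of Trbv3 and Trbj2-7, with 116, 94 and 60 UMIs in the 3 spleens, or 0.0724%, 0.0418% and 0.0614% of their coding UMIs. It had 15 nucleotide sequences with these V and J genes, of which 4 were present in all 3 spleens under the same genes. These 4 are printed with the 3 positions that vary among them in capitals, to show how few bases set them apart. A further sequence of the same CDR3, present in all 3 spleens but assigned to another V gene in spleen 2, is given with the V gene calls.
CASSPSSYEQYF 1: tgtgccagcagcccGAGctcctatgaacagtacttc
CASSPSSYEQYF 2: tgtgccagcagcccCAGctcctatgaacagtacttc
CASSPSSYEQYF 3: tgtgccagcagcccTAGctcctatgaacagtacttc
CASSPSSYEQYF 4: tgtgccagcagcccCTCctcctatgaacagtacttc
Among the 4, sequence 1 was the most abundant in each spleen, with 51, 36 and 20 UMIs, followed by sequence 2 with 28, 29 and 18 and sequence 3 with 17, 12 and 10. The order of these 3 sequences was the same in the 3 mice. No D segment was recognised in any of the 4, and 2 to 5 nucleotides lay between V and J.

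The largest private clonotype is shown for contrast. It was a 15-residue receptor of Trbv13-1 and Trbj2-1 with 359 UMIs in spleen 1, which is 0.224% of that library, and 10 UMIs in the kidney of the same mouse. It had 1 nucleotide sequence, printed with the bases between V and J in capitals.
Largest private: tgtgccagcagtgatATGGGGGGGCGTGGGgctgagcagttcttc
Of the 15 bases between V and J, 5 lay outside the D segment. The largest private clonotype of spleen 2 was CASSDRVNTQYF of Trbv13-1 and Trbj2-5, with 236 UMIs in that spleen and 21 in the kidney. That of spleen 3, a 15-residue receptor of Trbv13-3 and Trbj2-1, had 102 UMIs in the spleen and 4 in the kidney. Each of the 3 was thus also present in the UUO kidney of its own mouse and in no other kidney.

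The 10 largest public clonotypes, ranked by their mean share of UMIs over the 3 spleens, used few V genes. Of these, 4 used Trbv1, 2 used Trbv3, 2 used Trbv13-2, 1 used Trbv4 and 1 used Trbv5. After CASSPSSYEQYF, the highest mean share was that of a 14-residue receptor of Trbv1 and Trbj2-2, with 6, 146 and 7 UMIs. Its place rested on spleen 2, where its share was 17.3 times that in spleen 1, and 157 of its 159 UMIs had 1 nucleotide sequence, present in all 3 spleens.
Trbv1 and Trbj2-2: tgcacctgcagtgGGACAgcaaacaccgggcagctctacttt
All 5 of the capitalised bases between V and J were assigned to a D segment, so this joint contained no inserted nucleotide.

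Most of the other large public clonotypes had similar shares in the 3 spleens. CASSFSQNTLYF of Trbv4 had 32, 31 and 21 UMIs, and its highest share was 1.56 times its lowest. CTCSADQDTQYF of Trbv1 had 35, 31 and 15 UMIs, all its 5 nucleotide sequences being free of inserted nucleotides. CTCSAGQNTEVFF of Trbv1 had 22, 31 and 22 UMIs with 14 nucleotide sequences. The short receptors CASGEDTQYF and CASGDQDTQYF of Trbv13-2 had 35, 24 and 14 and 26, 24 and 19 UMIs. In contrast, a 15-residue receptor of Trbv5 had 37, 41 and 4 UMIs and a 14-residue receptor of Trbv3 and Trbj2-7 had 45, 31 and 2. In 6 of the 10 the highest share was under 2 times the lowest. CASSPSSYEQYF was among them by its Trbv3 calls, without 193 UMIs of a further sequence in spleen 2 that were assigned to Trbv4.

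**Figure D1:**
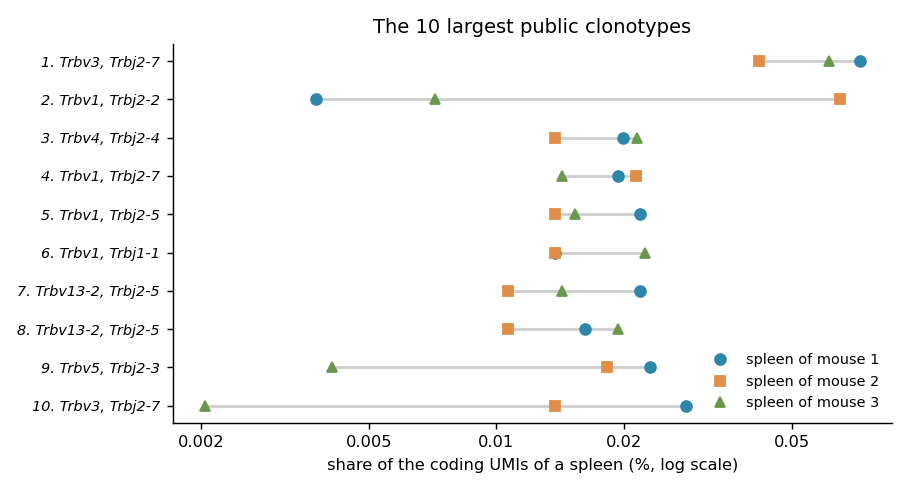
Share of the coding UMIs of each spleen (x axis, percent, log scale) taken by the 10 largest public clonotypes, named by V and J gene and ranked from the top by their mean share. Symbols are the 3 spleens and grey lines span them; the receptor of Trbv1 and Trbj2-2 in second place spans the widest range, 0.00375% to 0.0649%.

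CDR3 length is given from the conserved cysteine to the conserved phenylalanine, both counted. These and the following sequence features describe 1 public set against 3 private sets and carry no test. Public clonotypes were 13.44 residues long on average and private clonotypes 13.97 ± 0.00620 (SD, n = 3 spleens), a difference of -0.528 residues (public minus private). Clonotypes in 2 spleens lay between them, at 13.62 ± 0.0124 (SD, n = 3). The median was 14 residues in every class. At least 16 residues were found in 2.16% of public and 12.2% ± 0.216 (SD, n = 3) of private clonotypes, and 15 residues in 15.2% and 23.2% ± 0.0206 (SD, n = 3). At most 12 residues were found in 20.9% of public and 13.9% ± 0.0692 (SD, n = 3) of private clonotypes. The public set ranged from 9 to 17 residues, and private sets from 4 to between 21 and 25.

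Seen from the other side, the share of all spleen clonotypes of a given length that were public was 3.498% at 11 residues, 2.61% at 14 residues and 1.496% at 15 residues. It was 0.524% at 16 residues, and only 7 of 6934 longer clonotypes (0.101%) were public. With 4 to 10 residues the share was 2.51%, so it did not increase further towards the shortest CDR3s. The public receptors were shorter within each of the 20 V genes they used and each of the 12 J genes. Within V genes, weighted by the public clonotypes, the difference was -0.595 residues.

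Inserted nucleotides are those between V and J that the authors' alignment assigned to no D segment. They include short D remnants that were not recognised as such. Public clonotypes contained 2.01 ± 0.0271 (SD, n = 3 spleens) inserted nucleotides and private clonotypes 3.44 ± 0.0133 (SD, n = 3), while those in 2 spleens contained 2.32 ± 0.0133 (SD, n = 3). No inserted nucleotide was present in 27.2% ± 0.601 (SD, n = 3) of the nucleotide clones of public clonotypes and 9.90% ± 0.229 (SD, n = 3) of private ones. At least 6 were present in 4.95% ± 0.213 (SD, n = 3) and 19.0% ± 0.268 (SD, n = 3). The public clonotypes are the same in each spleen, so the public SD here and below is no spread between separate sets. Each public value lay outside the range of the 3 private sets.

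The D segment also contributed less. A recognised D segment was missing in 42.7% ± 0.453 (SD, n = 3) of public and 24.9% ± 0.363 (SD, n = 3) of private nucleotide clones. With such clones counted as having no D nucleotides, the mean D length was 4.38 ± 0.0279 (SD, n = 3) and 6.21 ± 0.0450 (SD, n = 3) nucleotides. This mean thus also contains the share without a D segment, and the length of recognised D segments alone was not compared. The whole distance from V to J was 6.39 ± 0.0198 (SD, n = 3) and 9.65 ± 0.0538 (SD, n = 3) nucleotides. Inserted nucleotides also differed at equal CDR3 length, at which the D segment and the distance from V to J were not compared. Among CDR3s of 14 residues, public clonotypes contained 2.04 ± 0.0321 (SD, n = 3) and private clonotypes 3.41 ± 0.00414 (SD, n = 3) inserted nucleotides, and among those of 16 residues 1.36 ± 0.120 (SD, n = 3) and 3.61 ± 0.0388 (SD, n = 3). In the private sets the number was 3.08 at 11 residues and 3.61 at 16, whereas in the public set it was 1.99 at 11 residues, 2.21 at 12 and 1.36 at 16.

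Public clonotypes contained fewer inserted nucleotides in all 20 V genes and all 12 J genes, by 1.10 to 1.68 nucleotides among V genes. Of the nucleotide clones without inserted nucleotides, 18.7%, 16.2% and 22.9% in spleens 1, 2 and 3 belonged to a public clonotype. With 1 inserted nucleotide the share was 12.97% ± 2.20 (SD, n = 3), and with 6 or more it was 2.97% ± 0.475 (SD, n = 3). Public clonotypes also had joints with inserted nucleotides, 21.7% ± 0.203 (SD, n = 3) of their nucleotide clones having 1 and 16.2% ± 0.105 (SD, n = 3) having 2.

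**Figure D2:**
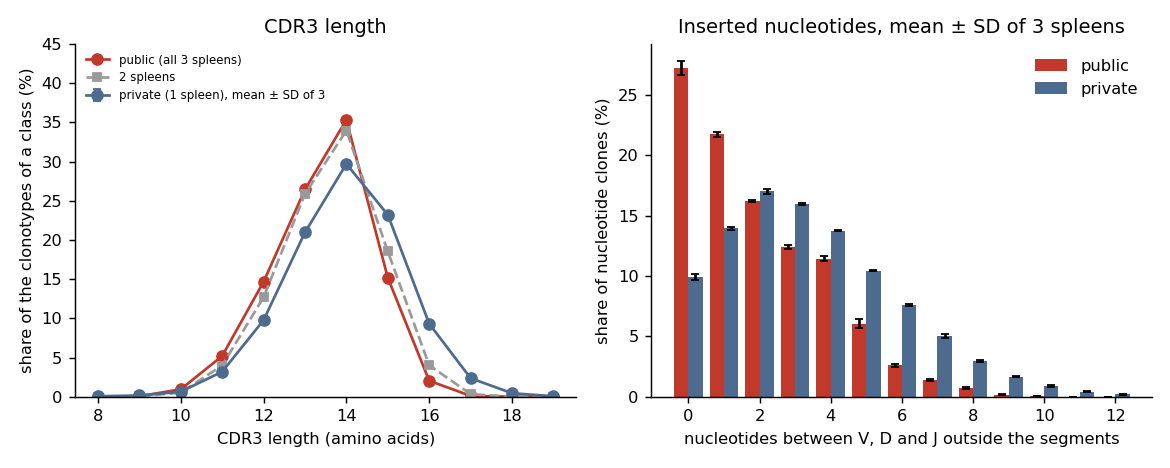
Left, share of the clonotypes of each class (y axis, percent) by CDR3 length in amino acids (x axis); private values are means ± SD of 3 spleens. Right, share of nucleotide clones (y axis, percent) by number of inserted nucleotides (x axis), mean ± SD of 3 spleens; the public bars are highest at 0, with 27.2%, and the private bars at 2, with 17.0%.

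The residues between the outer 3 at each end of the CDR3 also differed. Histidine made up 0.105% of them in public and 0.624% ± 0.00685 (SD, n = 3) in private clonotypes, and lysine 0.176% and 0.730% ± 0.00978 (SD, n = 3). Arginine, at 4.08% and 6.54% ± 0.00992 (SD, n = 3), and proline, at 1.58% and 3.14% ± 0.0137 (SD, n = 3), were likewise rarer in public clonotypes. So were cysteine, methionine, phenylalanine, valine, tryptophan and isoleucine, with public to private ratios of 0, 0.130, 0.420, 0.506, 0.643 and 0.667. Aspartate was the residue with the highest ratio, at 8.66% of public and 7.42% ± 0.0583 (SD, n = 3) of private residues. Glycine and serine were the most frequent in both classes. Germline V and J segments contribute to these positions, so the composition also contains the V and J gene use described next.

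The V genes of the β locus lie on mouse chromosome 6, most of them upstream of the D and J segments. All 24 V gene names and 12 J gene names of the files matched RefSeq symbols of GRCm38.p6, from which the coordinates are taken. Of 18 V genes with at least 1% of either class, 9 (50.0%) differed by at least 1.5 times between public and private clonotypes, 2 upwards and 7 downwards. Of 12 J genes, 3 (25.0%) did, all downwards. A gene's share here is its share of distinct clonotypes, so a large clone counts once.

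Trbv1 (chr6:40891296-40891885) made up 15.8% of public and 9.37% ± 0.550 (SD, n = 3) of private clonotypes, 1.68 times as much. Trbv13-2 (chr6:41121396-41121832) made up 16.1% and 10.3% ± 0.447 (SD, n = 3), 1.57 times as much. Trbv5 and Trbv3 followed, each 1.34 times as frequent among public clonotypes. These 4 genes together encoded 929, 948, 680 and 566 of the 5885 public clonotypes in the order Trbv1, Trbv13-2, Trbv5 and Trbv3.

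The V genes that were rarer among public clonotypes were mostly the rare ones. Trbv29 (chr6:41271403-41271881), which RefSeq lists as a pseudogene, encoded 9 public clonotypes, or 0.153%, against 1.71% ± 0.297 (SD, n = 3) of private ones. Trbv14 encoded 15 public clonotypes, Trbv23 13 and Trbv17 28, and their shares were 0.148, 0.148 and 0.248 times the private ones. Trbv26 (1.68% against 3.18% ± 0.192, SD, n = 3), Trbv19 (3.40% against 6.14% ± 0.783, SD, n = 3) and Trbv2 (2.84% against 4.66% ± 0.564, SD, n = 3) were lower by less. Trbv21, Trbv22, Trbv24 and Trbv30 encoded no public clonotype and 117, 27, 586 and 773 private ones. Across the 18 V genes, the log2 ratio of public to private share increased with the log2 private share (Pearson r = 0.90). This is a description over 18 genes that share their libraries, and each gene's private share enters both values.

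Among J genes, Trbj1-5 (1.34% against 3.26% ± 0.149, SD, n = 3), Trbj1-6 (2.09% against 3.52% ± 0.186, SD, n = 3) and Trbj2-1 (6.66% against 10.1% ± 0.356, SD, n = 3) were less frequent among public clonotypes. Trbj2-7 (chr6:41543810-41543856) was the most frequent J gene in both classes, with 19.7% of public and 16.2% ± 0.236 (SD, n = 3) of private clonotypes. Trbj1-1 had the highest ratio, 1.23, with 11.9% against 9.68% ± 0.330 (SD, n = 3). Trbj1-3 (6.44% against 5.31%), Trbj2-5 (15.4% against 13.2%), Trbj2-3 (10.9% against 9.94%) and Trbj1-2 (5.73% against 5.23%) were slightly more frequent, and Trbj2-4 (9.18% against 9.41%), Trbj2-2 (4.96% against 6.45%) and Trbj1-4 (5.57% against 7.59%) less so. The public share lay outside the range of the 3 private shares for all 12 J genes and for 16 of the 18 V genes, the exceptions being Trbv16 and Trbv20.

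Combinations of V and J genes that were frequent in public clonotypes joined these genes. The most frequent was Trbv13-2 with Trbj2-7, in 204 public clonotypes (3.47% against 1.69% ± 0.105, SD, n = 3, of private ones). Trbv13-2 with Trbj2-5 followed with 163 and Trbv1 with Trbj2-7 with 153. Among the 12 most frequent combinations, Trbv1 with Trbj1-1 had the highest ratio, 2.14 (131 public clonotypes).

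**Figure D3:**
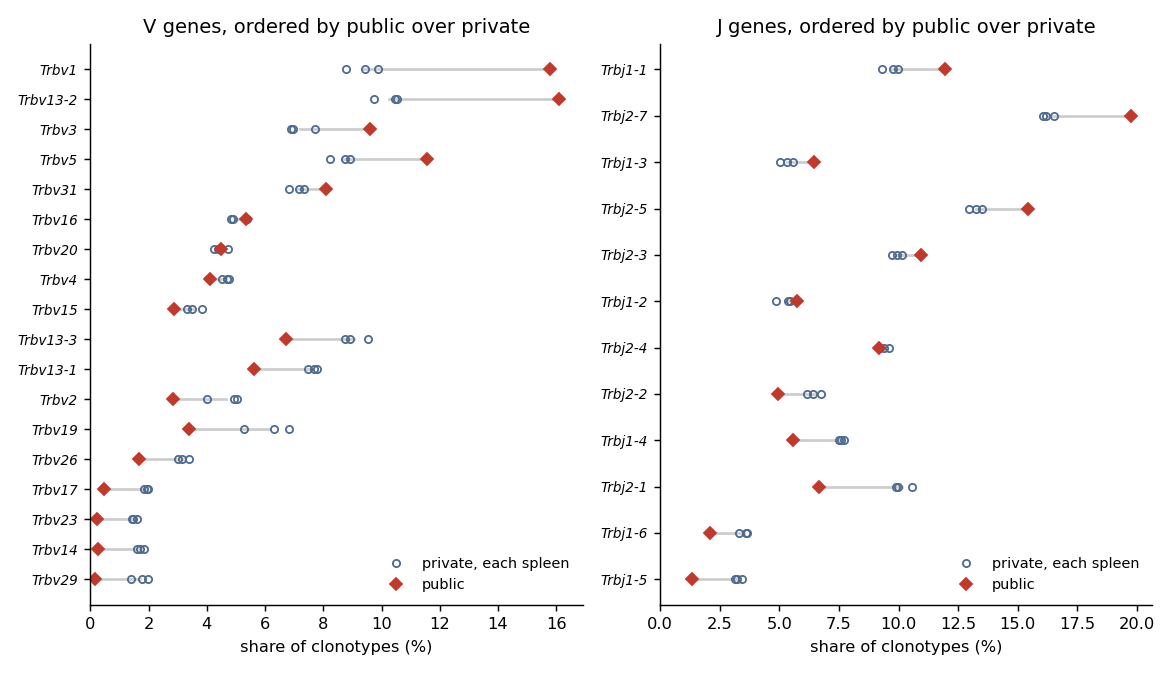
Share of distinct clonotypes (x axis, percent) that used each V gene (left) and J gene (right), ordered from the top by the ratio of public to private. Red diamonds are the public set and open circles the private clonotypes of each of the 3 spleens; Trbv1 and Trbv13-2 lie farthest to the right of the private circles and Trbj1-5 has the lowest ratio among J genes.

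The V gene of a clone is a call that limits these classes. Each CDR3 nucleotide sequence occurred once in a file, with 1 leading V gene, so a sequence made from more than 1 V gene is counted under a single one. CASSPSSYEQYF gives an example, for which the sequence below was assigned to Trbv3 in spleen 1 (8 UMIs) and spleen 3 (5 UMIs) and to Trbv4 in spleen 2 (193 UMIs).
Same CDR3, V call differing: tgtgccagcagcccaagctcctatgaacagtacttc
The Trbv4 clonotype with this CDR3, 196 UMIs in all, was therefore private to spleen 2, and it was recorded apart from the public Trbv3 clonotype. Of the private clonotypes, 3.11%, 2.70% and 3.27% in spleens 1, 2 and 3 had a CDR3 nucleotide sequence that occurred in another spleen under another V or J gene. For the amino acid sequence these shares were 18.2%, 16.9% and 18.8%. Several V genes were listed for 0.275% to 0.372% of the clones of a spleen.

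Public clonotypes were encoded by more nucleotide sequences than private clonotypes of the same UMI count. Presence in a spleen fixed the classes and more UMIs allow more sequences, so the comparison was made at equal UMIs in a spleen. Of the clonotypes with 2 UMIs, 43.3% ± 6.73 (SD, n = 3) of the public, 27.6% ± 3.06 (SD, n = 3) of those in 2 spleens and 7.89% ± 1.01 (SD, n = 3) of the private had 2 nucleotide sequences. With 5 UMIs, 86.7% ± 3.90 (SD, n = 3), 70.0% ± 0.395 (SD, n = 3) and 31.3% ± 2.28 (SD, n = 3) had at least 2. At each UMI count from 2 to 5 every spleen's public share lay above every spleen's private share. A test was not made, because a clonotype with several sequences had more ways to be present in all 3 spleens.

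**Figure D4:**
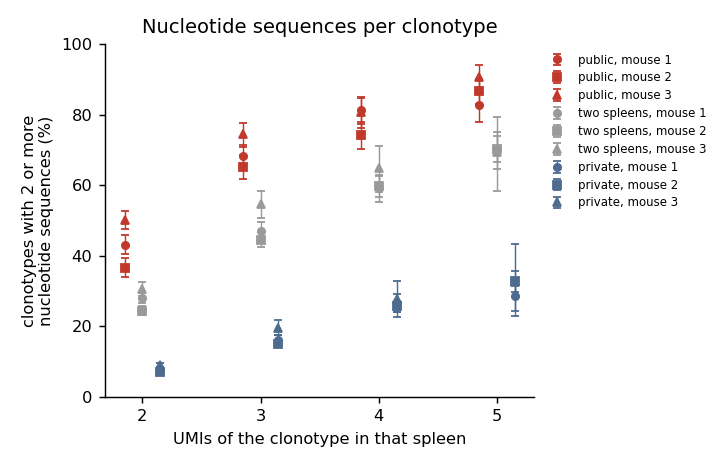
Share of clonotypes encoded by 2 or more nucleotide sequences within a spleen (y axis, percent) by their UMIs in that spleen (x axis), for public, 2-spleen and private clonotypes of each mouse, with exact 95% binomial intervals. At every UMI count the public symbols lie above the 2-spleen symbols and these above the private ones.

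Over the 3 spleens, counting only sequences with the clonotype's own V and J call, the 5885 public clonotypes had 22865 nucleotide sequences, 3.89 each on average with a median of 3. A single sequence, then present in all 3 spleens, encoded 202 of them (3.43%), while 1570 (26.7%) had 5 or more and 120 (2.04%) had 10 or more. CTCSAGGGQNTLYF of Trbv1 had 18 sequences, as many as the Trbv1 receptor shown above, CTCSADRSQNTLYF of Trbv1 had 16, and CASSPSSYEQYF and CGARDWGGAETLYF of Trbv20 had 15 each. The last of these had 13, 28 and 17 UMIs in the spleens and 2 in the kidney of mouse 3.

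Public clonotypes did not always share a nucleotide sequence under the same V and J call. A sequence that occurred in another spleen under another V or J gene is not counted as shared here, so the shared numbers are lower limits. In 1280 public clonotypes (21.8%) at least 1 sequence was present in all 3 spleens, in 2719 (46.2%) a sequence was shared by 2 spleens at most, and in 1886 (32.0%) no sequence was present in more than 1 spleen with these genes. These 3 groups contained 1.66, 1.93 and 2.36 inserted nucleotides on average and were 13.1, 13.4 and 13.7 residues long. Their median total over the 3 spleens was 11, 7 and 5 UMIs. The clonotypes that shared a sequence were thus those with fewer inserted nucleotides, shorter CDR3s and more UMIs.

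The kidneys took no part in the choice of the classes, so presence in them was compared between the classes, within each mouse. A larger share of the public than of the private clonotypes was found in the UUO kidney of the same mouse, in 3 of 3 mice. Of the 5885 public clonotypes, 57, 64 and 44 were found in the kidneys of mice 1, 2 and 3, which is 0.969% (exact 95% interval 0.734 to 1.25), 1.09% (0.838 to 1.39) and 0.748% (0.544 to 1.00). Of the private clonotypes of their spleens, 164, 287 and 141 were found, which is 0.208% (0.178 to 0.243), 0.280% (0.249 to 0.314) and 0.257% (0.217 to 0.303). The intervals cover counting error only. Public shares were higher in 3 of 3 mice, by 1.90 ± 0.342 (SD, n = 3) on the log2 scale, or 3.74 times (exact two-sided sign-flip permutation test over mice, p = 0.25, the smallest that 3 mice allow, adjusted p = 0.25 over 4 comparisons). The kidney comparisons below share this lower limit.

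This difference turned with the UMIs of a clonotype in the spleen, of which public clonotypes had more. They had 3.08, 4.02 and 2.17 UMIs on average in spleens 1, 2 and 3 and private clonotypes 1.44, 1.59 and 1.24. Among clonotypes with 1 UMI in the spleen, 0.178%, 0.533% and 0.203% of the public and 0.0545%, 0.106% and 0.126% of the private were found in the kidney, the public share being higher in 3 of 3 mice. Among those with 5 to 9 UMIs, the private share was higher in 3 of 3 mice, with 5.24%, 2.96% and 13.4% against 1.46%, 1.64% and 2.81%. With 10 or more UMIs it was 31.9%, 33.5% and 40.6% against 10.4%, 5.00% and 7.04%, although private clonotypes of this class were also larger, with 24.1, 22.3 and 19.2 UMIs on average against 15.1, 15.7 and 13.4.

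When private clonotypes were weighted to the spleen UMIs of the public ones, an alternative chosen after seeing the data, 2.59% ± 0.815 (SD, n = 3) of them were found in the kidney against 0.935% ± 0.172 (SD, n = 3) of the public. The log2 ratio was then -1.44 and negative in 3 of 3 mice, that is, opposite in direction to the unweighted one (exact sign-flip permutation test, p = 0.25). It was -1.39 with finer UMI classes and -0.94 among clonotypes with 1 to 9 UMIs, and 1.42 among those with 1 or 2. Thus public clonotypes with 1 or 2 spleen UMIs were found in the kidney more often, and those with 5 or more less often, than private clonotypes in the same UMI classes. The first direction rested on few clonotypes. With 1 UMI, 4, 9 and 6 public clonotypes were found in the kidneys of mice 1, 2 and 3, and with 2 UMIs 6, 4 and 7. Exact intervals of public and private shares overlapped at 1 UMI in mice 1 and 3 and at 2 UMIs in every mouse. They overlapped at 5 to 9 UMIs in mouse 2 alone and at 10 or more UMIs in no mouse. The crossing itself was not tested.

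**Figure D5:**
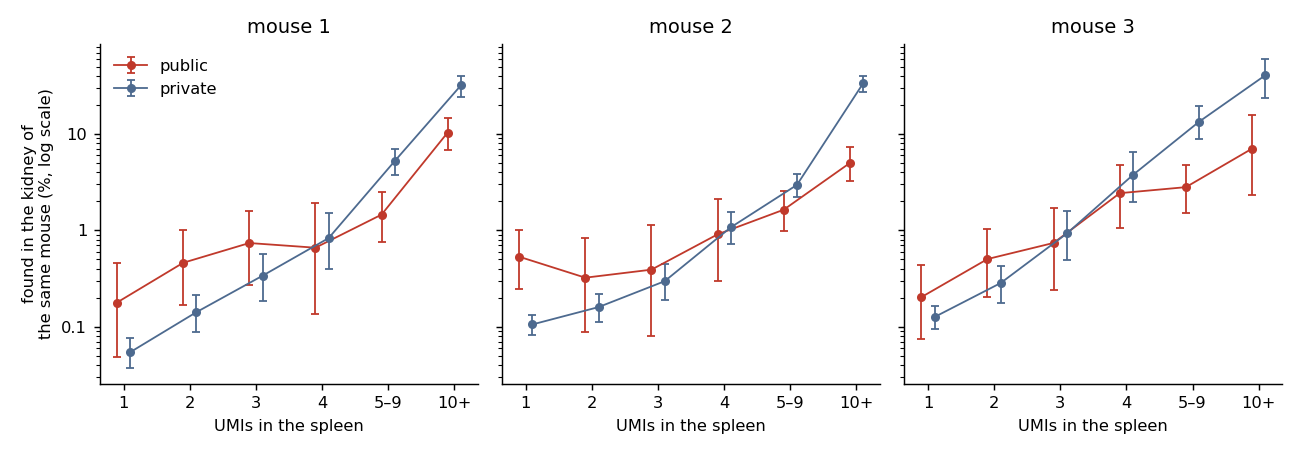
Share of public (red) and private (blue) spleen clonotypes found in the UUO kidney of the same mouse (y axis, percent, log scale) by their UMIs in the spleen (x axis), 1 panel per mouse, with exact 95% binomial intervals. Public points lie above private ones at 1 and 2 UMIs and below them at 5 to 9 and at 10 or more UMIs in all 3 mice.

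For a private clonotype, the kidneys of the other mice give a background of sharing without a common animal. Of the private clonotypes of the other 2 spleens, 0.0114%, 0.0322% and 0.0232% were found in the kidneys of mice 1, 2 and 3. Public clonotypes were found there 45.2 times as often (log2 ratio 5.50 ± 0.785, SD, n = 3, higher in 3 of 3 mice, exact sign-flip permutation test, p = 0.25, adjusted p = 0.25). Public clonotypes are by definition also present in the spleen of the mouse in question, whereas those private clonotypes are not. The definition thus favours this direction, and the test cannot separate sharing between mice from presence in the same mouse.

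Seen from the kidneys, public clonotypes were 57 of 481, 64 of 752 and 44 of 472 clonotypes, or 11.9%, 8.51% and 9.32%. Those private to the same mouse made up 34.1%, 38.2% and 29.9%, and those in no spleen 38.5%, 34.4% and 38.8%. Kidney clones of public clonotypes carried 1.47 ± 0.0193 (SD, n = 3) UMIs per clonotype and those of private ones 2.10 ± 0.186 (SD, n = 3), a log2 ratio of -0.51 ± 0.140 (SD, n = 3) that was negative in 3 of 3 mice (exact sign-flip permutation test, p = 0.25, adjusted p = 0.25). No public clonotype exceeded 5 kidney UMIs in any mouse, while the largest private clonotypes had 20, 40 and 33. At least 3 kidney UMIs were found for 14.04%, 10.94% and 9.09% of the public and 18.9%, 19.5% and 15.6% of the private clonotypes in the kidney.

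The clonotypes found in the kidney are a subset of those compared in the spleen, and a clonotype's CDR3 length is fixed by its definition, so their lengths are no independent observation. CDR3 length in the kidney was 13.44, 13.55 and 13.18 residues for public and 13.76, 13.97 and 14.05 residues for private clonotypes, a mean difference of -0.538 ± 0.290 residues (SD, n = 3, shorter in 3 of 3 mice, exact sign-flip permutation test, p = 0.25, adjusted p = 0.25). Inserted nucleotides numbered 1.75, 1.57 and 1.86 in public and 3.39, 3.22 and 3.21 in private kidney clonotypes.

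A nucleotide sequence of a public kidney clone was present in the spleen of the same mouse in 76.3%, 77.6% and 75.6% of the clones, and that of a private kidney clone in 95.7%, 91.0% and 94.3%. The remaining public clones shared the amino acids with the spleen and differed in nucleotides. Public kidney sequences were present in the spleen of another mouse in 54.2%, 68.7% and 57.8% of the clones. In 6 of 59, 6 of 67 and 2 of 45 public kidney clones the nucleotide sequence was found in the spleens of other mice and not in that of the same mouse. When presence in the kidney required the same nucleotide sequence in the spleen of that mouse, the log2 ratio of public to private shares was 1.61.

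Over the 3 kidneys, 161 public clonotypes were found at least once, 157 of them in 1 kidney, 4 in 2 and none in all 3. The 161 had a median of 13 UMIs over the spleens, against 7 for the other public clonotypes, and 68 (42.2%) had 5 or more nucleotide sequences, against 26.7% of all public clonotypes. Trbv1 encoded 31 of them (19.3%, against 15.8% of all public clonotypes) and Trbv13-2 28 (17.4%, against 16.1%), shares near those of the whole public set. Of the clonotypes with a nucleotide sequence in all 3 spleens under the same V and J call, 5.16% were found in a kidney, against 1.27% of those with no sequence in more than 1 spleen. These groups also differed in spleen UMIs, with a median total of 11 against 5, and were not compared at equal UMIs.

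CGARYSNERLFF of Trbv20 and Trbj1-4 had the most kidney UMIs among the 4 clonotypes found in 2 kidneys. It had 4, 3 and 1 UMIs in spleens 1, 2 and 3 and 0, 5 and 4 in their kidneys. In contrast to the other public clonotypes described, it had 1 nucleotide sequence, the same in the 3 spleens and both kidneys, and the 5 bases between V and J, in capitals, were assigned to no D segment.
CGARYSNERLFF: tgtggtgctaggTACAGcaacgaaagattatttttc
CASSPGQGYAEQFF of Trbv13-3 and Trbj2-1 had 12, 13 and 3 UMIs in the spleens and 4, 1 and 0 in the kidneys, with 5 nucleotide sequences. A 15-residue receptor of Trbv13-2 had 15, 16 and 19 UMIs in the spleens and 2, 0 and 3 in the kidneys, and a 16-residue receptor of Trbv5 had 41, 14 and 3 and 1, 1 and 0. In these 3 the kidneys held different nucleotide sequences of the same receptor.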

How the data were processed

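TCR-β mRNA of splenic and renal CD4+ T cells was amplified by 5′ RACE with UMIs. The authors assembled clones with MiXCR (GRCm38 and R 4.4.2 per the labels' processing notes) and deposited UMI and read counts per clone, not normalized. The deposited fractions of UMIs and reads were compared with the counts and not used further, nor was the deposited CDR3 quality score. Non-coding clones were left out. UMIs of the same CDR3 amino acid sequence, first V gene and first J gene were summed. Inserted nucleotides were read from the authors' reference points, with P nucleotides counted in the segments. Gene positions come from RefSeq (GRCm38.p6). Coding UMIs numbered 97735 to 224811 per spleen and 693 to 1248 per kidney, so that a count of 0 in the smallest kidney allows a share of up to 0.433% (3 counts, counting error only).

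A kidney and a spleen with the same number in their titles were taken as 1 mouse, since the paper compared both organs of the same mice. Private clonotypes were found in the kidney of the same mouse at 0.249% and of another at 0.0223%. Classes were therefore compared within mice by exact two-sided sign-flip permutation over 3 mice (Benjamini-Hochberg over 4 comparisons), which cannot give a p below 0.25. The classes, named clonotypes, gene lists and tests were chosen with earlier results of these data known. Named were the 10 largest public clonotypes, the 5 with the most nucleotide sequences, those in most kidneys, the largest private clonotype of each spleen, V genes past 1.5 times and all J genes. CDR3s over 14 residues, and a few others whose letters read as bases, are given by V and J gene. The nucleotide sequences of the Trbv1 and Trbj2-2 receptor, of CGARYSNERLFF and of the Trbv4 example were chosen for printing after their values were seen. Alternatives changed the minimum UMIs, depth, clonotype definition, merging of similar clones, carry-over, reads, weighting and mice. Computations used pandas 2.3.3, numpy 2.4.6 and scipy 1.17.1 under Python 3.11.15, figures matplotlib 3.10.9, and the functions were tested on simulated clone tables. Tests compare 3 mice of 1 treatment, with no uninjured mice analysed here.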

Additional observations from a re-analysis of the deposited data

Results flagged for a closer look

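UMIs per clonotype differed in opposite directions in the organs, although over different sets of clonotypes. In the spleen, whose presence calls defined the classes, public clonotypes had more UMIs than private ones in 3 of 3 mice (log2 ratio 1.08 ± 0.261, SD, n = 3), and in the kidney fewer in 3 of 3 mice (log2 ratio -0.51 ± 0.140, SD, n = 3). The spleen ratio covers all clonotypes of a class, and the kidney ratio only those found in the kidney. Those found in the kidney had 13.2, 11.4 and 4.89 spleen UMIs on average if public, in mice 1, 2 and 3. If private they had 13.1, 11.1 and 4.86, so their means were nearly equal, while their medians were 8, 6 and 4 against 5, 4 and 2. The difference between the organs was not tested, and the spleen value is partly set by the rule.

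Non-coding clones, which entered no comparison, gave a signal of sharing at the nucleotide level, here compared by CDR3 nucleotide sequence whatever its V and J gene. Of their 21870 distinct sequences over the 3 spleens, 30 were present in 2 spleens (0.137%) and 0 in all 3, which allows up to 0.0137%. Of 308967 coding sequences, 14062 were present in 2 spleens (4.55%) and 2658 in 3 (0.860%). The coding set was much larger, and the sets were not drawn to equal numbers of sequences. Since sharing between spleens depends on how many sequences are sampled, these shares do not show whether non-coding sequences were shared less.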

How the results depend on the processing

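The number of public clonotypes depended most on the definition. It was 5885 as reported, 1710 with at least 2 UMIs in each spleen, 3540 with the spleens drawn to 97735 UMIs, 1452 by CDR3 nucleotide sequence with V and J gene and 10027 by CDR3 amino acid sequence alone, without V and J gene. With 1 mouse left out, so that public meant present in both remaining spleens, it was 10809 to 16257, V genes past 1.5 times numbered 4 to 5 instead of 9 and J genes 1 instead of 3. Merging similar clones (3554 merged), leaving out possible carry-over (2 clones) or single-read clones kept it within 1.5 times.

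The CDR3 length difference of -0.528 residues was -0.579 with at least 2 UMIs, -0.537 at equal depth, -0.769 by nucleotide sequence, -0.609 by CDR3 alone, -0.512 with similar clones merged, -0.607 weighted by UMIs, -0.468 among clonotypes of 1 UMI and -0.595 within V genes (added after seeing the data), and -0.401 to -0.394 without 1 mouse. The difference in inserted nucleotides of -1.43 was -3.26 when the D segment was not taken off, -1.37 within CDR3 lengths, -1.30 with at least 2 UMIs, -1.78 by nucleotide sequence, -1.53 by CDR3 alone, and -1.17 to -1.15 without 1 mouse. The excess of public clonotypes of 2 UMIs with 2 nucleotide sequences, 35.4 percentage points, was 22.7 to 27.6 without 1 mouse.

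The log2 ratio of shares found in the kidney of the same mouse, 1.90, was 1.27 to 2.19 under the 10 alternatives to the definition, depth, minimum UMIs, merging, carry-over, reads and nucleotide identity and 1.29 to 1.32 without 1 mouse, and it reversed when private clonotypes were weighted to the spleen UMIs of the public ones (-1.44, -1.39 with finer classes, -0.94 among 1 to 9 UMIs). Without the replicate block, that is, with the 2 classes not paired by mouse, the 4 kidney comparisons (log2 ratios 1.90, 5.50 and -0.51, and a length difference of -0.538) gave p = 0.1 each by exact permutation, the smallest that 3 against 3 allow, and p = 0.25 with it. Presence in the kidney is limited by depth, since the kidneys held 693 to 1248 UMIs.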
